A study of Mus musculus with 4 samples.

Results

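The genes described here carry calcium into, out of and away from the internal stores of brain cells. They are the ryanodine receptors Ryr1, Ryr2 and Ryr3, the inositol trisphosphate (IP3) receptors Itpr1, Itpr2 and Itpr3, the store pump Atp2a2 and the plasma membrane pumps Atp2b1 and Atp2b2. They were taken by symbol, and all 9 were found among the 32285 features of the deposited matrices. Calcium is held in the endoplasmic reticulum and leaves it through ryanodine receptors, which open in response to calcium itself, and through IP3 receptors, which open when phospholipase C makes IP3 downstream of Gq-coupled receptors such as metabotropic glutamate receptors. Atp2a2 encodes the SERCA pump that refills the store. Atp2b1 and Atp2b2 encode pumps of the plasma membrane, not of the store, and push calcium out of the cell. In hippocampal neurons release from stores adds to the calcium signals of dendrites and terminals that accompany synaptic plasticity, and in astrocytes it is the main source of slow calcium waves.

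Nuclei came from the hippocampus of mice with the genotype ArcCreERT2::eYFPflx, carried by all 4 libraries, in which the Arc promoter drives an inducible Cre that turns on a floxed eYFP reporter. There were 2 Trained libraries, from mice trained in active place avoidance, where a mouse learns to stay out of a shocked sector of a rotating arena, and 2 Untrained libraries from control mice. Tissue was taken 3 days after a retention test without a new recall session, and the question put by the design is which transcripts differ while a memory is kept. The design gives 2 mice in each group, so each library is taken as 1 mouse. P-values for training within a class or over all nuclei measure the spread between these 4 samples alone. Tests within libraries, such as those between classes, first take out each library's own level. Their p-values measure the spread left after that in the same 4 libraries, with classes pooled. Ages are not given in the sources used here, and nuclei that carry the eYFP tag were not analysed.

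Barcodes with at least 600 UMIs (unique molecular identifiers, each counted as 1 RNA molecule) were kept as nuclei, 47110 of 260589 barcodes. Trained replicate 1 stood apart, with 6019 nuclei and a median of 736 UMIs, while Trained replicate 2 and Untrained replicates 1 and 2 held 12206, 16916 and 11969 nuclei with medians of 887, 957.5 and 1079 UMIs. A pair of libraries shared 17 to 65 barcodes. Marker genes gave a cell class to 17.6% of nuclei in Trained replicate 1 and 27.7% in Trained replicate 2, and to 28.3% in Untrained replicate 1 and 33.8% in Untrained replicate 2. The 7 classes with at least 30 nuclei in every library were dentate granule (2462 nuclei), CA1 pyramidal (2241), CA3 pyramidal (1092), inhibitory (2759), thalamic excitatory (1270), oligodendrocyte (940) and astrocyte (966). Thalamic nuclei lie outside the labelled tissue. The summed markers used for assignment were 4.72 to 14.0 times higher in their class than in the other barcodes, and markers kept aside for checking were 1.18 to 19.3 times higher, least in CA3 (1.18 to 1.73) and CA1 (1.28 to 1.96). Levels below are CPM, the UMIs of a gene scaled to a common total within each library and class. A gene's CPM is set against its own CPM in other classes and libraries and not against that of another gene, since no correction for transcript length or priming was made.

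The ryanodine receptors differed between neuronal classes, each in its own order. Ryr2, the cardiac and main brain type, was highest in dentate granule and CA3 nuclei, and Ryr3 in CA1, CA3 and thalamic nuclei. Ryr1, the skeletal muscle type, was scarce in all classes and highest on average in dentate granule nuclei. In dentate granule nuclei Ryr2 stood at 1469 and 1466 CPM in the Trained libraries and at 1308 and 1437 CPM in the Untrained libraries. In CA1 nuclei it stood at 866 and 924 CPM in Trained and at 909 and 954 CPM in Untrained libraries, and in CA3 nuclei at 1373 and 1389 CPM in Trained and 1201 and 1330.1 CPM in Untrained libraries. Every dentate and CA3 library lay above every CA1 library. Means were 1419.9 ± 75.8 CPM in dentate granule nuclei, 1323 ± 85.1 in CA3 and 913 ± 36.4 in CA1 (SD, n = 4). Of the other classes, astrocytes averaged 637 ± 229, oligodendrocytes 624 ± 130, inhibitory nuclei 568 ± 54.3 and thalamic nuclei 275 ± 101 CPM (SD, n = 4). Of the neighbours in this order, dentate and CA3 overlapped, as did CA1, astrocytes, oligodendrocytes and inhibitory nuclei, whereas inhibitory and thalamic nuclei did not.

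Ryr3 ran in another order. It averaged 1151 ± 116 CPM in CA1, 1005 ± 67.9 in CA3 and 904 ± 51.7 in thalamic nuclei, then 352 ± 143 in astrocytes, 322 ± 82.3 in dentate granule nuclei, 273 ± 66.3 in oligodendrocytes and 214 ± 56.2 in inhibitory nuclei (SD, n = 4). The lowest library of the thalamic class, at 852 CPM, was above the highest library of any class below it, an astrocyte library at 509 CPM. In CA1 nuclei the Trained libraries held 983 and 1226 CPM and the Untrained libraries 1162 and 1232 CPM. In dentate granule nuclei the Trained libraries held 441 and 289 CPM and the Untrained libraries 251 and 308 CPM. Relative to their own levels in other classes, both receptors were high in CA3, Ryr2 alone in the dentate gyrus and Ryr3 alone in thalamic nuclei.

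Ryr1 averaged 33.7 ± 5.88 CPM in dentate granule nuclei (SD, n = 4), with libraries from 25.9 to 38.8 CPM. Oligodendrocyte libraries ran from 3.13 to 44.0 CPM on 11 UMIs in all, so that 1 of them lay above every dentate library, and the libraries of the other 5 classes ran from 0 to 23.4 CPM. It rests on few molecules, 100 UMIs over the 4 libraries in dentate granule nuclei and 31 in CA1. After every nucleus was thinned to 600 UMIs, 1.61% to 2.25% of dentate granule nuclei held a Ryr1 UMI, against 0% to 0.836% of CA1 nuclei (2.19% to 4.46% and 0% to 1.91% before thinning) and 0% to 3.70% of oligodendrocytes (0.298% to 3.70% before thinning), so the transcript was seen in a small minority of nuclei at this depth.

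The sequence upstream of the start of Ryr2 and of Ryr1, the receptors that divided the dentate gyrus from CA1 in the same direction and have an entry in the RefSeq promoter table (GRCm38.p6, which is not the build of the files), is shown for comparison, 250 bases each. Capitals mark the GC box (GGGCGG or its reverse complement CCGCCC) and the E box (CANNTG, the same on both strands).
Ryr2, chr13:12106946-12107195, minus strand: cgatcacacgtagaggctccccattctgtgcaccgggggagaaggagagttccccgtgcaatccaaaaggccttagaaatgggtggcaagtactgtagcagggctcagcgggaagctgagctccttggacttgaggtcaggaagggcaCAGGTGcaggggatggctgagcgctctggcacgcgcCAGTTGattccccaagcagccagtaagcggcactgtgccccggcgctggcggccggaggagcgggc
Ryr1, chr7:29125152-29125401, minus strand: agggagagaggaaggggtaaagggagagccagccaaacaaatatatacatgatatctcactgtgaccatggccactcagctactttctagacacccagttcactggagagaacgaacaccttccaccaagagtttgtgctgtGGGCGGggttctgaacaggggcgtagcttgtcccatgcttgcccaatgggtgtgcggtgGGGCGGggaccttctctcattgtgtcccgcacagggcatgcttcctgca
Ryr2 holds 0 GC boxes and 2 E boxes in this window, and Ryr1 holds 2 GC boxes and 0 E boxes. Of 32851 mouse promoters cut to the same length, 32.7% hold a GC box and 66.2% an E box, so both are common. The match is of letters only. Of the 9 genes, 6 have an entry; Ryr3, Itpr1 and Atp2a2 have none.

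Among the IP3 receptors, Itpr1, the main neuronal type, was found in every class, Itpr2, the type known from astrocytes, in glia and thalamic nuclei above all, and Itpr3 hardly at all. Itpr1 averaged 448 ± 64.9 CPM in CA1, 400.3 ± 15.3 in dentate granule, 359 ± 29.9 in thalamic, 304 ± 14.7 in inhibitory and 218 ± 33.9 in CA3 nuclei, with 295 ± 19.5 in oligodendrocytes and 291 ± 60.9 in astrocytes (SD, n = 4). In CA3 nuclei it stood at 240.0 and 179.6 CPM in Trained and 253 and 201 CPM in Untrained libraries, every one below the lowest CA1 library at 358 CPM. Low-UMI barcodes, used here as a measure of free RNA, carried Itpr1 at 291 to 304 CPM. The libraries of inhibitory nuclei, oligodendrocytes and astrocytes overlapped this range, and every CA3 library lay below it.

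Itpr2 averaged 117 ± 30.9 CPM in astrocytes, 76.1 ± 23.1 in thalamic nuclei, 58.3 ± 10.99 in oligodendrocytes and 43.5 ± 4.47 in CA1, and 26.5 ± 9.60 in inhibitory, 15.4 ± 6.61 in CA3 and 9.85 ± 2.48 in dentate granule nuclei (SD, n = 4). The astrocyte libraries held 84.9 and 96.2 CPM in the Trained group, on 4 and 19 UMIs. In the Untrained group they held 136 and 149.6 CPM, on 51 and 47 UMIs. Dentate granule libraries held 8.64 and 8.63 CPM in the Trained and 13.6 and 8.55 CPM in the Untrained group, below the 13.9 to 24.0 CPM of the low-UMI barcodes. Oligodendrocyte precursors, too few for a test with 22 nuclei in Trained replicate 1, held 159 and 233 CPM in the Trained and 246 and 122 CPM in the Untrained libraries, on 3 to 27 UMIs each. After thinning, 5.36% to 9.11% of astrocytes held an Itpr2 UMI, against 0% to 0.749% of dentate granule nuclei (7.14% to 14.4% and 0.730% to 1.66% before thinning, at median depths of 737.5 to 818 UMIs and 773 to 1064 UMIs). The upstream sequence of Itpr2 follows with the same marks. It was the tested member with the largest log2 difference between astrocytes and the mean of dentate granule, CA1 and CA3 nuclei.
Itpr2, chr6:146502224-146502473, minus strand: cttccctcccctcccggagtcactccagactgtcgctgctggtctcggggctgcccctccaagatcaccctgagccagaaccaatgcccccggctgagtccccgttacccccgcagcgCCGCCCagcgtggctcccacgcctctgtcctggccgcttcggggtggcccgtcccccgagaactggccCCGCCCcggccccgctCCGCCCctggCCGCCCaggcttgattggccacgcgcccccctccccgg
It holds 4 GC boxes and 0 E boxes, and 74.4% of its bases are G or C, against 54.8% in Ryr1 and 63.2% in Ryr2.

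Itpr3, the type known from secretory epithelia and taste cells, gave 53 UMIs in all 47110 nuclei. It was at or below 3.91 CPM in each library of the 7 classes and at 0 UMIs in CA3 nuclei and astrocytes, which over the 4 libraries allows up to 1.81 CPM in CA3 nuclei and 3.21 CPM in astrocytes (3 counts). Low-UMI barcodes held 0.911 to 2.14 CPM, so no class was distinguishable from background at this depth.

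Of the pumps, Atp2a2 averaged 450.4 ± 33.3 CPM in thalamic nuclei and between 292 and 365 CPM in the other 6 classes, whose neighbours all overlapped. Atp2b1, the widespread plasma membrane pump, averaged 1593 ± 60.4 CPM in CA1, 1263 ± 69.0 in thalamic and 1059 ± 46.0 in CA3 nuclei (SD, n = 4), with no overlap between these classes, and 706 to 993 CPM in the other 4. Atp2b2, the fast pump best known from cerebellar and sensory cells, averaged 551 ± 45.5 CPM in thalamic, 436 ± 17.8 in dentate granule and 386 ± 21.5 in inhibitory nuclei and 309 ± 78.0 in CA1 (SD, n = 4). Low-UMI barcodes held 706 to 744 CPM of Atp2a2, above every library of every class. They held 1422 to 1911 CPM of Atp2b1, above every library outside CA1. For Atp2b2 they held 453 to 521 CPM, above the average of every class but the thalamic.

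**Figure D1:**
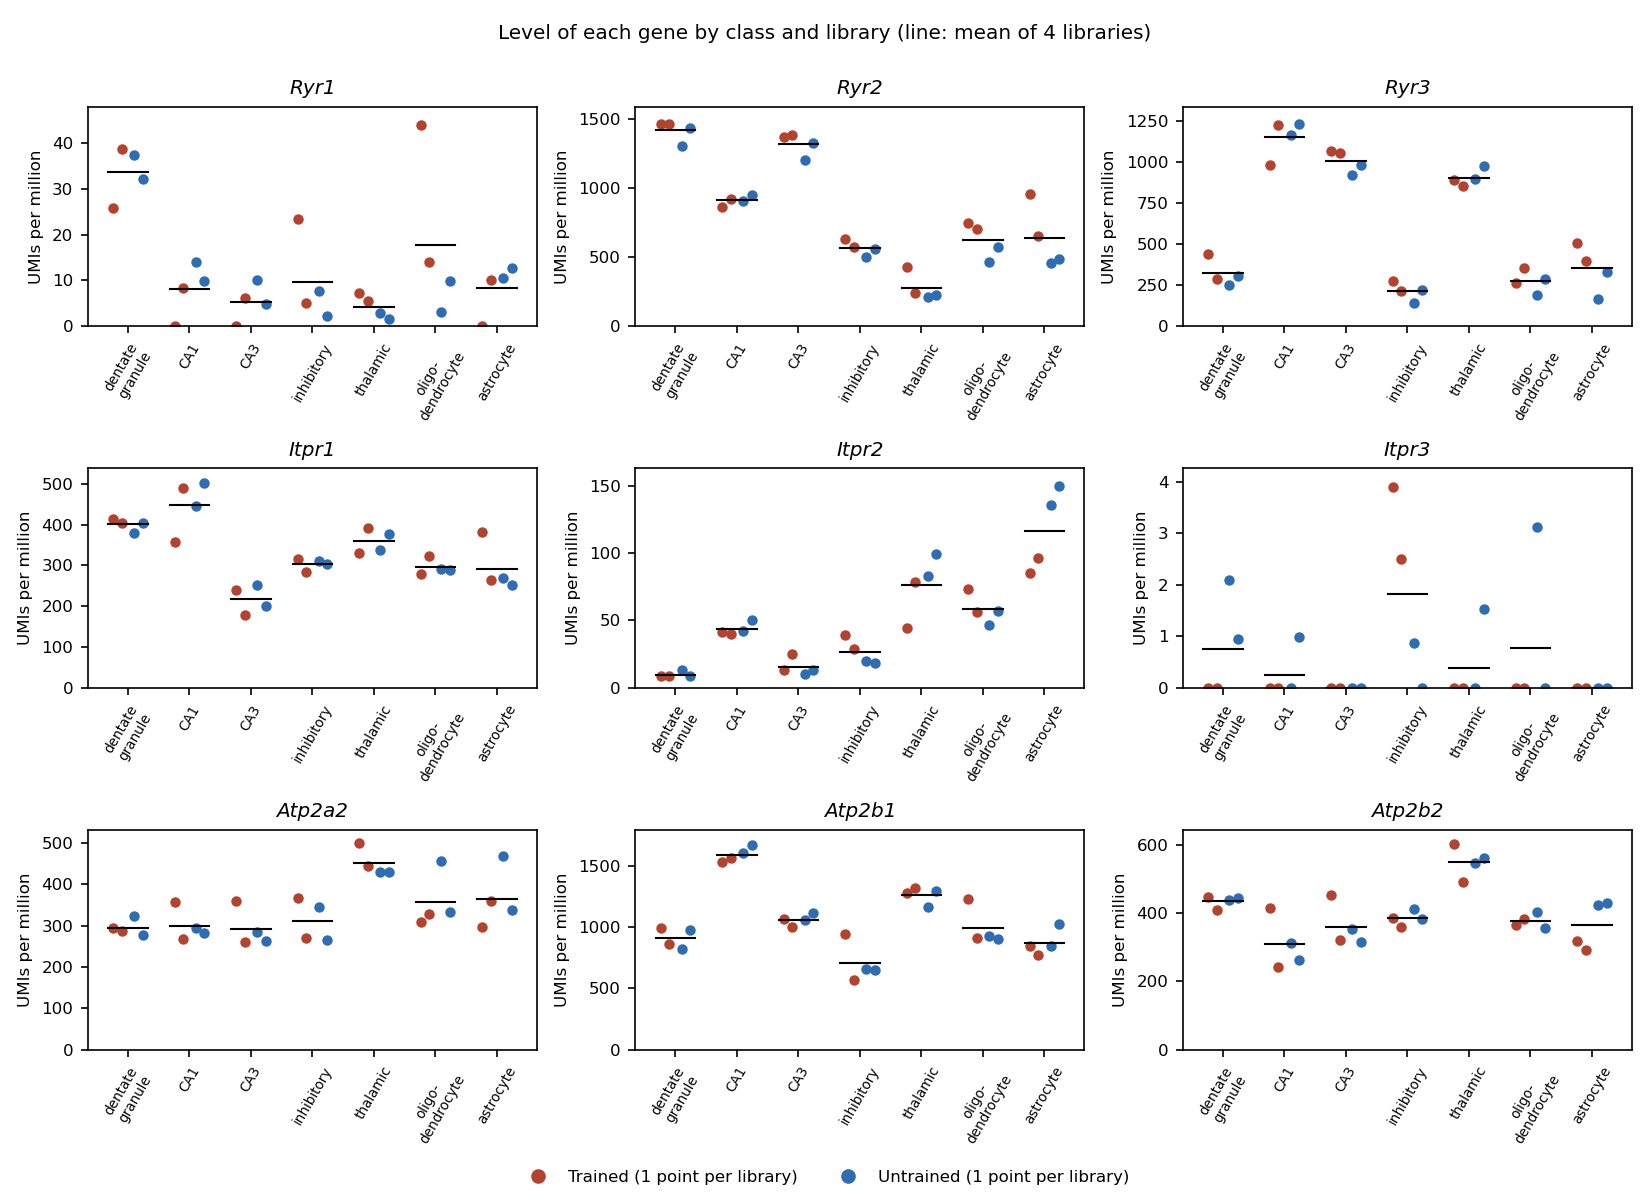
Level of each gene (vertical axis, CPM) in the 7 classes (horizontal axis), with 1 point per library, Trained left of Untrained, and a line at the mean of the 4 libraries. Ryr2 is highest in dentate granule and CA3 nuclei, Ryr3 in CA1, CA3 and thalamic nuclei, Itpr2 in astrocytes, and Itpr3 does not pass 3.91 CPM.

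Class differences were tested with edgeR's quasi-likelihood test on counts summed per library and class, with the library as a block and Benjamini-Hochberg adjustment over all 9281 genes. Itpr3 did not pass the count filter, so 8 of the 9 genes were tested. In the dentate gyrus against CA1, 7 of the 8 passed an adjusted p of 0.05, where 20.1% of all genes did. Here and below, shares of all genes cover every level past the count filter and were not matched to the members. Ryr3 fell by 2.07 on the log2 scale (SE 0.13, adjusted p = 3.68e-28) and Itpr2 fell by 2.19 (SE 0.27, adjusted p = 2.14e-11), while Ryr1 rose by 1.62 (SE 0.32) and Ryr2 by 0.52 (SE 0.11). Of the pumps, Atp2b1 fell by 0.91 (SE 0.12) and Atp2b2 rose by 0.50 (SE 0.12). Itpr1 fell by 0.32 (SE 0.11, adjusted p = 0.0245), a call lost without Trained replicate 2 (adjusted p = 0.216), Untrained replicate 1 (adjusted p = 0.121) or Untrained replicate 2 (adjusted p = 0.301), and also at 1000 UMIs, without the count filter or the library block, and with free RNA subtracted (adjusted p from 0.0757 to 0.182). Atp2a2 differed by -0.06 (SE 0.12) and did not pass.

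In CA3 against CA1, 4 of the 8 genes passed, where 14.4% of all genes did. Itpr1 fell by 1.09 (SE 0.13, adjusted p = 2.01e-12), Itpr2 by 1.46 (SE 0.29) and Atp2b1 by 0.56 (SE 0.12), while Ryr2 rose by 0.54 (SE 0.12, adjusted p = 0.000164). Ryr3, at -0.21 (SE 0.12, adjusted p = 0.313), did not pass. In the dentate gyrus against CA3, 4 passed, where 20.8% of all genes did: Ryr3 fell by 1.86 (SE 0.14, adjusted p = 8.1e-24), Ryr1 rose by 2.24 (SE 0.42), Itpr1 rose by 0.77 (SE 0.13), and Atp2b1 fell by 0.35 (SE 0.12, adjusted p = 0.0246). Ryr2, at -0.02 (SE 0.12), did not pass. Ryr1 held 11 UMIs in CA3 over the 4 libraries, at 0 to 10.1 CPM, and ran from 0 to 14.0 CPM in CA1. Both ranges covered the 3.85 to 6.94 CPM of Ryr1 in low-UMI barcodes. The Atp2b1 call was lost without Trained replicate 2 (adjusted p = 0.162), Untrained replicate 1 (adjusted p = 0.204) or Untrained replicate 2 (adjusted p = 0.137), and without the count filter (adjusted p = 0.0677) or the library block (adjusted p = 0.126).

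Inhibitory nuclei carried less of 5 of the 8 genes than the mean of the 3 principal classes, where 28.1% of all genes differed. That mean is taken over log2 levels, so a class can pass against it and still lie between the 3. Ryr3 fell by 1.88 (SE 0.12, adjusted p = 2.45e-28), Ryr2 by 1.17 (SE 0.10) and Atp2b1 by 0.83 (SE 0.10). Ryr1 fell by 1.12 (SE 0.38, adjusted p = 0.0156) and Itpr1 by 0.25 (SE 0.09, adjusted p = 0.037). On average Itpr1 in inhibitory nuclei (304 CPM) lay above CA3 (218 CPM). Their Ryr1 (9.59 CPM) lay above CA1 (8.05 CPM) and CA3 (5.32 CPM). The Ryr1 and Itpr1 calls were both lost without Trained replicate 2, Untrained replicate 1 or Untrained replicate 2 (adjusted p from 0.0818 to 0.186), which leaves 3 genes. That of Itpr1 was also lost with DESeq2's size factors (adjusted p = 0.0514) and after thinning (0.159). It was lost too without the count filter (0.128) or the library block (0.142). That of Ryr1 was also lost with free RNA subtracted (adjusted p = 0.127). Inhibitory nuclei held 2649 to 3535 CPM of the 7 CA1 markers in Trained and 2976 to 3368 CPM in Untrained libraries, with none of the 7 at 0; the part of this in the differences was not tested.

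Thalamic nuclei differed from the principal classes in 6 of the 8 genes, where 36.2% of all genes differed. Ryr2 fell by 2.21 (SE 0.12, adjusted p = 1.84e-34) and Ryr1 by 1.98 (SE 0.54, adjusted p = 0.0018), and Itpr2 rose by 2.17 (SE 0.19, adjusted p = 9.51e-20). Atp2b2 rose by 0.68 (SE 0.09), Atp2a2 by 0.66 (SE 0.09) and Ryr3 by 0.42 (SE 0.10, adjusted p = 0.000361). On average thalamic Ryr3 (904 CPM) lay above the dentate gyrus (322 CPM) but below CA1 (1151 CPM) and CA3 (1005 CPM). The Ryr2 level in this class, 211 to 426 CPM, overlapped the 276 to 412 CPM of the low-UMI barcodes. Thalamic Ryr1, on 6 UMIs over the 4 libraries, ran from 1.53 to 7.34 CPM. It too overlapped the low-UMI barcodes, at 3.85 to 6.94 CPM. The Ryr3 call was lost after nuclei were thinned to 600 UMIs (0.27, SE 0.13, adjusted p = 0.0868), and that of Ryr1 without Untrained replicate 1 (-1.65, adjusted p = 0.0663). Thalamic nuclei had medians of 745.5 to 1831 UMIs.

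Oligodendrocytes and astrocytes each differed from the principal classes in 5 of the 8 genes, where 28% and 25.8% of all genes did. In oligodendrocytes Itpr2 rose by 1.30 (SE 0.26, adjusted p = 2.16e-05), and Ryr3 fell by 1.56 (SE 0.14), Ryr2 by 1.18 (SE 0.11), Atp2b1 by 0.45 (SE 0.11) and Itpr1 by 0.39 (SE 0.12, adjusted p = 0.00762). In astrocytes Itpr2 rose by 2.54 (SE 0.21, adjusted p = 7.31e-21), and Ryr3 fell by 1.39 (SE 0.14), Ryr2 by 1.26 (SE 0.12), Atp2b1 by 0.57 (SE 0.11) and Itpr1 by 0.52 (SE 0.12, adjusted p = 0.00043). Some of these falls were not below all 3 principal classes. On average astrocyte Ryr3 (352 CPM) and oligodendrocyte Atp2b1 (993 CPM) lay above the dentate gyrus (322 and 915 CPM). Itpr1 in oligodendrocytes (295 CPM) and astrocytes (291 CPM) lay above CA3 (218 CPM). The oligodendrocyte Itpr1 call was lost without Untrained replicate 1 (adjusted p = 0.139) or 2 (adjusted p = 0.104), after thinning to 600 UMIs (-0.32, adjusted p = 0.0817) and at 1000 UMIs, where the difference was -0.12 (adjusted p = 0.697), and the astrocyte call at 1000 UMIs (-0.32, adjusted p = 0.215). Atp2a2 in astrocytes, at 0.23 (SE 0.11, adjusted p = 0.127), passed without Trained replicate 1 (0.28, adjusted p = 0.0458), the only call on any of the 9 genes that changed on leaving out that shallow library. Neuronal markers were present in these glial classes, with the 7 dentate markers at 1605 to 2229 CPM in Trained and 1480 to 1904 CPM in Untrained astrocytes.

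**Figure D2:**
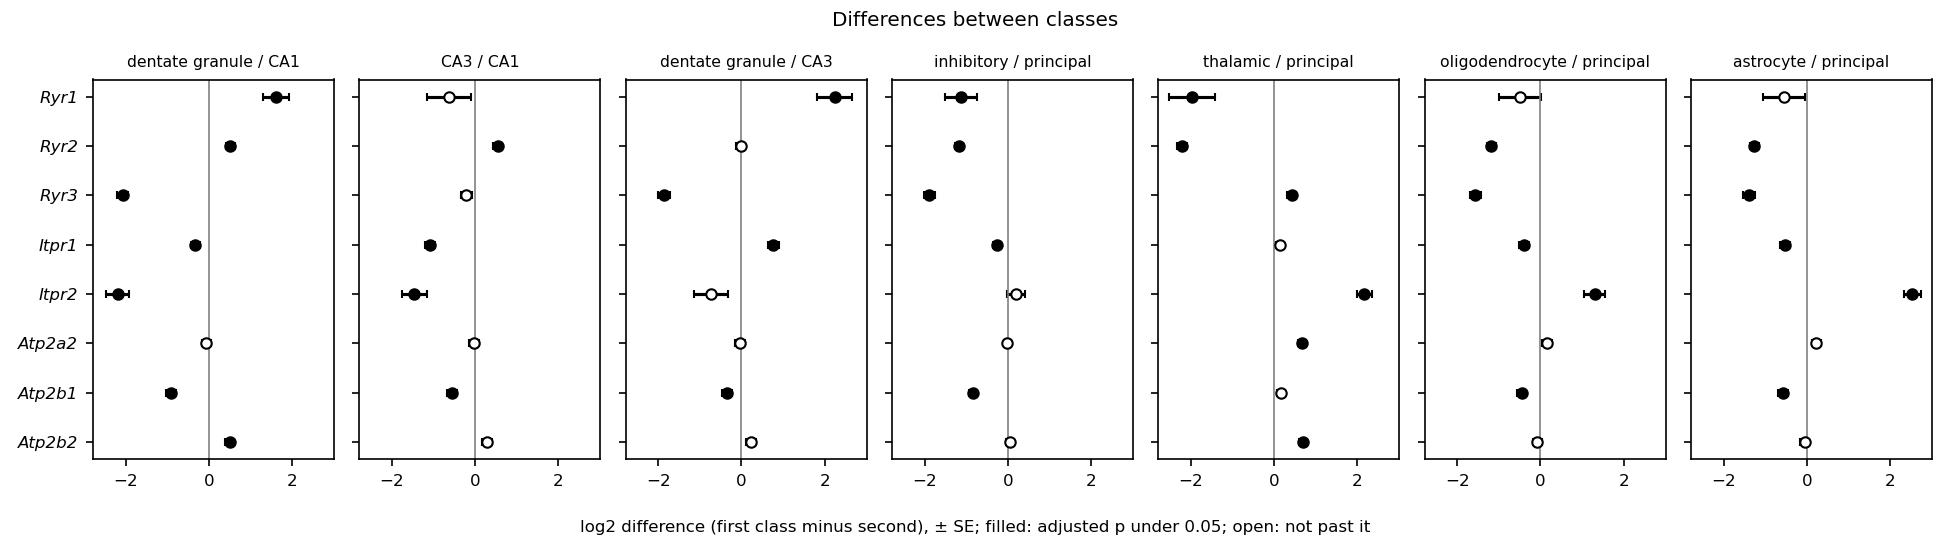
Log2 difference of 8 genes (rows) in the 7 class comparisons (panels, first class minus second, ± SE from edgeR); filled points have an adjusted p under 0.05. Ryr3 lies at -2.07 and -1.86 in the dentate gyrus against CA1 and CA3, and Itpr2 at 2.54, 2.17 and 1.30 in astrocytes, thalamic nuclei and oligodendrocytes against the principal classes.

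Within each receptor family the share of UMIs given by a member does not depend on a class's total count. Ryr3 gave 76.7% ± 6.53 of ryanodine receptor UMIs in thalamic nuclei, 55.5% ± 1.60 in CA1, 43.1% ± 0.553 in CA3 and 18.0% ± 3.26 in dentate granule nuclei (SD, n = 4). In thalamic nuclei the shares were 67.2% and 77.8% in Trained and 80.8% and 81.2% in Untrained libraries, and in CA1 nuclei 53.2% and 56.8% in Trained and 55.7% and 56.1% in Untrained libraries. No library of thalamic, CA1, CA3 or dentate granule nuclei lay in the range of another of these classes. Low-UMI barcodes had a Ryr3 share of 24.4% to 30.01%, a range that inhibitory nuclei (21.6% to 29.7%), oligodendrocytes (25% to 32.8%) and astrocytes (26.5% to 39.8%) overlapped. Itpr2 gave 28.9% ± 8.40 of IP3 receptor UMIs in astrocytes, 17.2% ± 4.03 in thalamic nuclei, 16.5% ± 3.12 in oligodendrocytes, 8.92% ± 1.18 in CA1 and 2.41% ± 0.686 in dentate granule nuclei (SD, n = 4). In astrocytes the Trained libraries gave 18.2% and 26.8%, and the Untrained libraries 33.6% and 37.3%. Atp2b2 gave 16.2% ± 3.72 of the UMIs of the pair of plasma membrane pumps in CA1 and 25.3% to 35.9% on average in the other 6 classes.

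**Figure D3:**
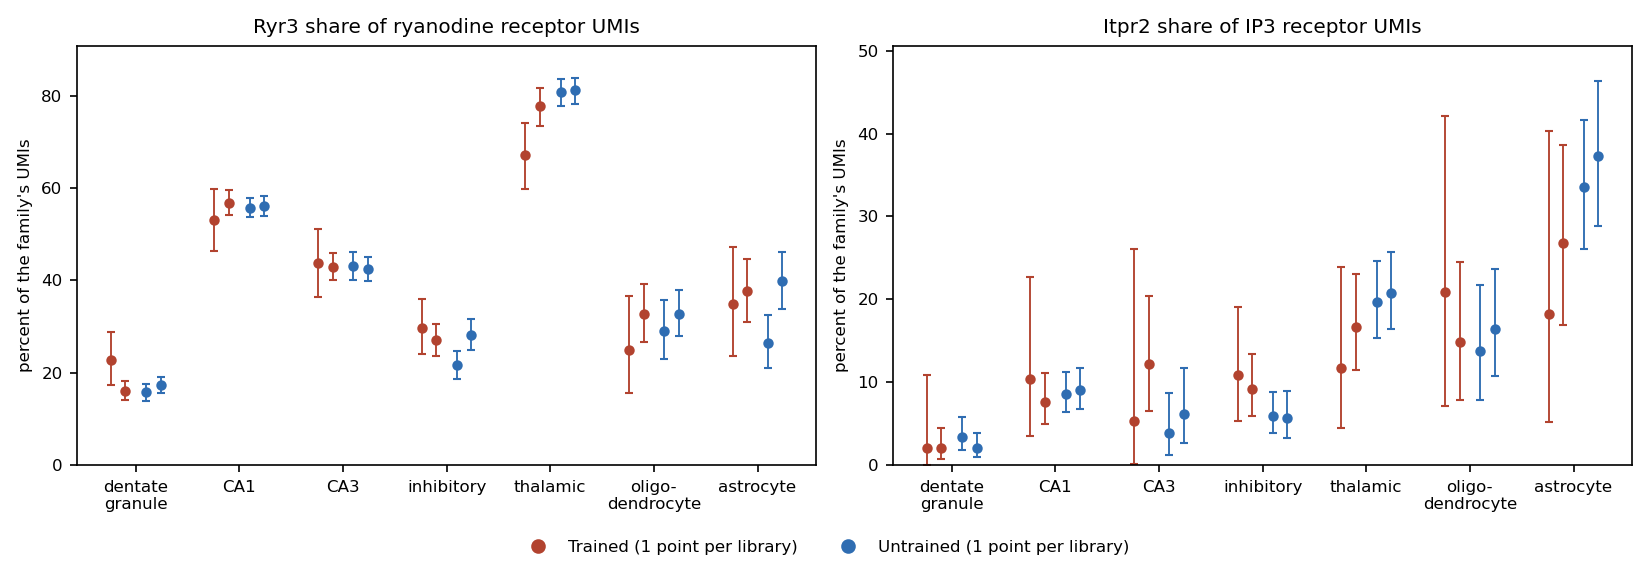
Share (percent) of ryanodine receptor UMIs given by Ryr3 (left) and of IP3 receptor UMIs given by Itpr2 (right) in the 7 classes, with 1 point per library and exact 95% binomial intervals that cover counting error only. The Ryr3 share runs from 18.0% on average in dentate granule to 76.7% in thalamic nuclei, and the Itpr2 share from 2.41% in dentate granule nuclei to 28.9% in astrocytes.

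Training changed none of the 9 genes past an adjusted p of 0.05 in any class, over all nuclei or in the test of a different effect between classes. Few genes of any kind did: the share of tested genes that passed was 0.0584% for inhibitory nuclei, 0.0271% for CA3, 0.0207% for the dentate gyrus, 0.0171% for astrocytes, 0.0132% for thalamic nuclei, 0.0107% for CA1, 0% for oligodendrocytes, 0% over all nuclei, and 0.0539% for the difference between classes. Of the 9 genes, 7 passed the count filter in each class, except 6 in CA3 and 9 over all nuclei. With edgeR, 2 of them had an unadjusted p under 0.05 in astrocytes, 2 in inhibitory nuclei and 0 in each other class and over all nuclei; DESeq2 called 0 in every class.

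In dentate granule nuclei Ryr2 differed by 0.11 (SE 0.16) and Ryr3 by 0.27 (SE 0.20) between Trained and Untrained libraries, and in CA1 nuclei by -0.05 (SE 0.17) and -0.09 (SE 0.17). In CA3 nuclei Itpr1 differed by -0.23 (SE 0.25). The largest difference of any tested member in these 3 classes was the 0.27 of Ryr3. Atp2a2 lay between -0.04 and 0.06 in them (SE 0.19 to 0.23). The SEs of all members tested in the 3 classes ran from 0.16 to 0.34.

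In astrocytes Ryr2 stood at 955 and 653 CPM in the Trained and 454 and 487 CPM in the Untrained libraries, a difference of 0.71 (SE 0.27, unadjusted p = 0.0143, adjusted p = 0.427). Ryr3 stood at 509 and 399.9 CPM in the Trained and 167 and 331 CPM in the Untrained libraries, a difference of 0.83 (SE 0.33, unadjusted p = 0.0165, adjusted p = 0.433). In both cases the groups did not overlap. Nor did they for Ryr1, Itpr2 and Atp2b2, which were lower in Trained astrocytes. Ryr1 held 10 UMIs there over the 4 libraries and did not pass the count filter. With 2 libraries in each group such a gap carries no test, and the share of all genes with one was not counted. The Trained libraries lay far apart for Ryr2 and the Untrained libraries for Ryr3. The Ryr3 difference passed the threshold without Untrained replicate 2 (1.34, SE 0.35, adjusted p = 0.0296) and after thinning to 600 UMIs (1.22, SE 0.34, adjusted p = 0.0332), and in oligodendrocytes without Untrained replicate 2 (0.80, SE 0.27, adjusted p = 0.0459; 0.40 with all libraries). Trained astrocytes also held 1038 to 1104 CPM of the 7 CA1 markers and Untrained astrocytes 720.3 to 789.6 CPM, with 6961 to 7628 CPM in Trained and 7861 to 8011 CPM in Untrained astrocytes of their own 7 markers, and none at 0 in all libraries. Cortical markers went the other way, at 982 to 1019 CPM in Trained and 1063 to 1185 CPM in Untrained astrocytes. The dentate, CA3, inhibitory and thalamic markers overlapped between the groups of astrocytes. In oligodendrocytes the CA1 markers stood at 1139.6 to 1218 CPM in Trained and 714 to 840.4 CPM in Untrained libraries, while the dentate, CA3, inhibitory, thalamic and cortical markers overlapped. Trained replicate 1 gave 56 astrocytes, 24 Ryr3 UMIs and 45 Ryr2 UMIs. The part of the neuronal markers in these differences was not tested. Itpr2 in astrocytes, at -0.58 (SE 0.37), and Atp2b2, at -0.49 (SE 0.30), did not pass.

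In inhibitory nuclei Itpr2 stood at 39.1 and 28.8 CPM in Trained and 19.8 and 18.2 CPM in Untrained libraries, a difference of 0.76 (SE 0.38, adjusted p = 0.896), on 10 to 23 UMIs a library. Ryr3 differed there by 0.44 (SE 0.22, adjusted p = 0.892) and Ryr2 in thalamic nuclei by 0.50 (SE 0.25, adjusted p = 0.999), where Trained replicate 1 held 426 CPM and the other 3 libraries 211 to 238 CPM. The test of a different effect of training between classes gave unadjusted p-values of 0.00587 for Ryr3, 0.0428 for Itpr2 and 0.0444 for Ryr2, and adjusted p-values of 0.527, 0.887 and 0.9. Over all nuclei Ryr3 stood at 666 and 658 CPM in Trained and 469.7 and 609.6 CPM in Untrained libraries, a difference of 0.33 (SE 0.15, adjusted p = 0.794); Ryr3 in the low-UMI barcodes of the same libraries was 179 and 126 CPM in Trained and 90.4 and 132 CPM in Untrained.

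**Figure D4:**
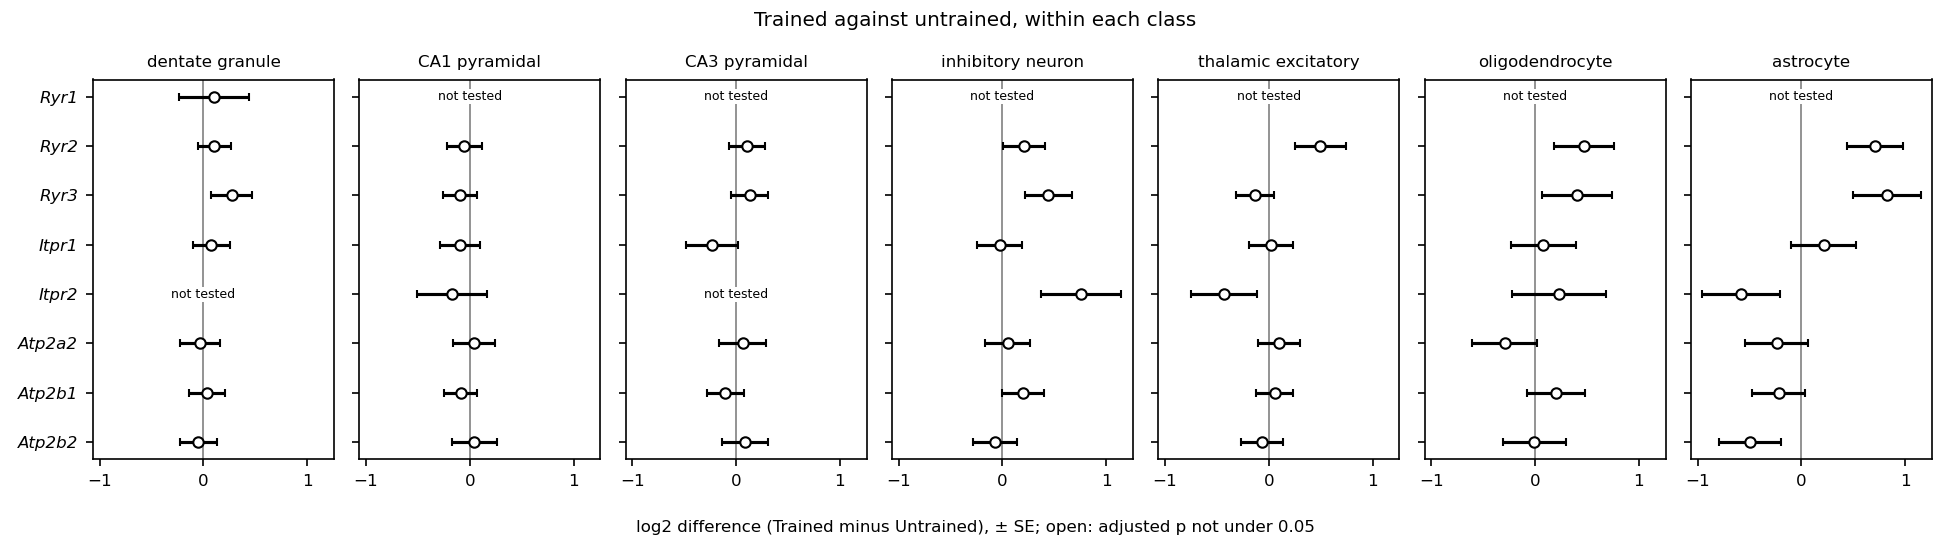
Log2 difference, Trained minus Untrained, of 8 genes (rows) in the 7 classes (panels), ± SE from edgeR; open points did not reach an adjusted p of 0.05, and genes under the count filter are marked as not tested. No point is filled; the points farthest from 0 are Ryr3 (0.83) and Ryr2 (0.71) in astrocytes and Itpr2 (0.76) in inhibitory nuclei.

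The members also differed in how they were divided between nuclei and the low-UMI barcodes of the same library, a comparison added after the data were seen. All 3 ryanodine receptors, Itpr1 and Itpr2 were higher in nuclei and all 3 pumps in low-UMI barcodes, while Itpr3 averaged 1.06 CPM in nuclei and 1.44 CPM in low-UMI barcodes and did not pass. Ryr3 stood at 666, 658, 469.7 and 609.6 CPM in the nuclei of Trained replicates 1 and 2 and Untrained replicates 1 and 2, and at 179, 126, 90.4 and 132 CPM in their low-UMI barcodes. Atp2a2 stood at 373, 298, 358 and 318 CPM in nuclei and at 744, 739, 726 and 706 CPM in low-UMI barcodes. The ranges of nuclei and low-UMI barcodes did not overlap for either gene. Of the 9 genes, 8 passed, where 83.4% of all 16513 genes did, so the count says little about these genes beyond their direction. Ryr3 rose by 2.20 (SE 0.09), Ryr1 by 1.62 (SE 0.14), Ryr2 by 1.41 (SE 0.09), Itpr2 by 0.88 (SE 0.11) and Itpr1 by 0.22 (SE 0.08, adjusted p = 0.0109) in nuclei, and Atp2a2 fell by 1.14 (SE 0.09), Atp2b1 by 0.61 (SE 0.10) and Atp2b2 by 0.28 (SE 0.08). The Itpr1 call was lost without Untrained replicate 2 (0.20, adjusted p = 0.0924), and Itpr3 differed by -0.38 (SE 0.31, adjusted p = 0.251).

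**Figure D5:**
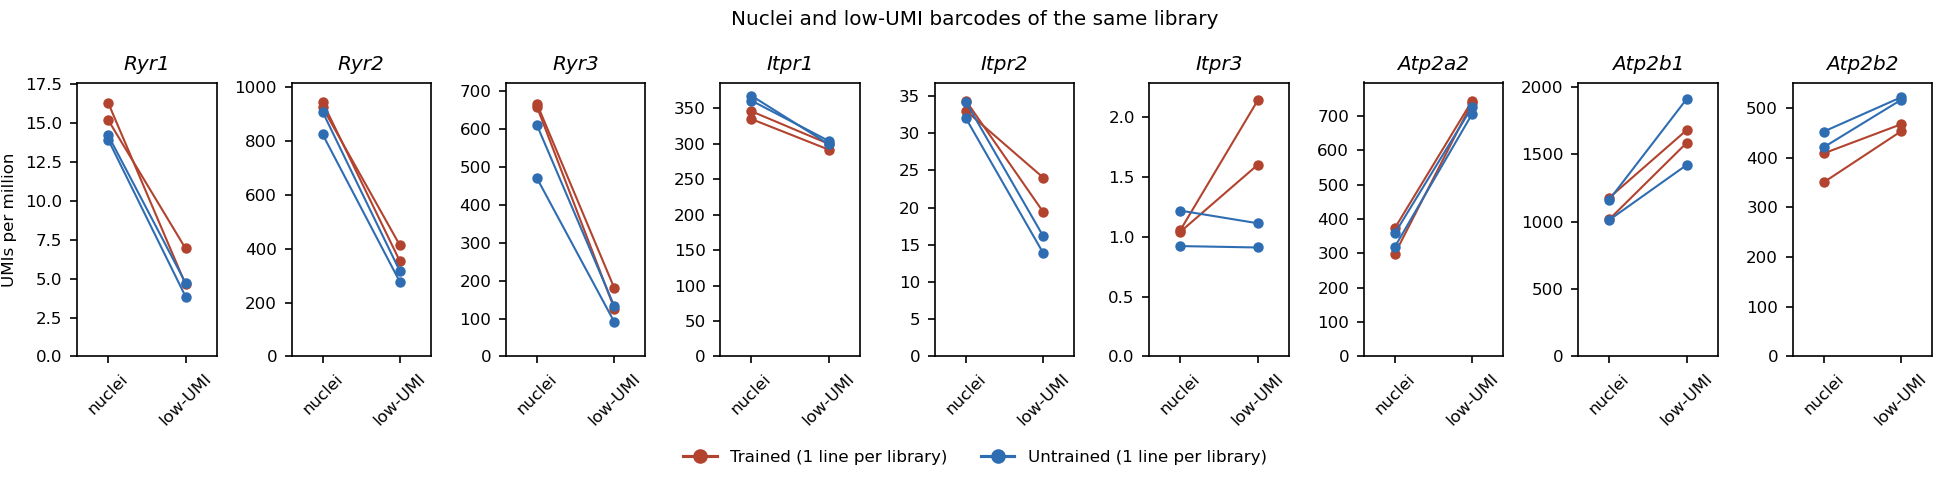
Level of each gene (vertical axis, CPM) in nuclei and in low-UMI barcodes, with 1 line per library. Lines fall from nuclei for Ryr1, Ryr2, Ryr3 and Itpr2 and climb for Atp2a2, from 298 to 373 CPM in nuclei against 706 to 744 CPM in low-UMI barcodes, and for Atp2b1 and Atp2b2.

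Other genes that feed, hold or clear the same calcium were counted from fixed lists. Of 18 genes that make or break down IP3 and cyclic ADP ribose, 14 were tested between classes. In the dentate gyrus against CA1, 6 passed (3 higher, 3 lower); in CA3 against CA1, 5 (2 higher, 3 lower); in the dentate gyrus against CA3, 5 (4 higher, 1 lower). Against the principal classes 9 passed in inhibitory nuclei (2 higher, 7 lower), 8 in thalamic nuclei (3 higher, 5 lower), 6 in oligodendrocytes (2 higher, 4 lower) and 9 in astrocytes (6 higher, 3 lower). As shares of the 14 these are 42.9%, 35.7%, 35.7%, 64.3%, 57.1%, 42.9% and 64.3%, where 20.1%, 14.4%, 20.8%, 28.1%, 36.2%, 28% and 25.8% of all genes passed in the same comparisons. Plcb4, a phospholipase C coupled to Gq, rose by 3.98 (SE 0.11) in thalamic nuclei, where it stood at 543 and 708 CPM in Trained and 634 and 772 CPM in Untrained libraries, and by 2.18 (SE 0.16) in astrocytes. Plcl1, a phospholipase C-like protein without catalytic activity, rose by 2.25 (SE 0.14) in the dentate gyrus against CA1 and by 2.17 (SE 0.10) in oligodendrocytes. Plcd4 rose by 3.37 (SE 0.32) in astrocytes, at 84.9 and 60.7 CPM in Trained and 58.5 and 102 CPM in Untrained libraries, and Itpka, which phosphorylates IP3, fell by 1.41 (SE 0.17) in CA3 against CA1.

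Of 27 partners of the receptors in the store membrane, 21 were tested, and 4, 5 and 6 passed in the dentate gyrus against CA1 (2 higher, 2 lower), CA3 against CA1 (2 higher, 3 lower) and the dentate gyrus against CA3 (3 higher, 3 lower). Against the principal classes 6 passed in inhibitory nuclei (1 higher, 5 lower), 10 in thalamic nuclei (3 higher, 7 lower), 6 in oligodendrocytes (2 higher, 4 lower) and 4 in astrocytes (1 higher, 3 lower). In the same order these are 19.0%, 23.8%, 28.6%, 28.6%, 47.6%, 28.6% and 19.0% of the 21, against the 20.1%, 14.4%, 20.8%, 28.1%, 36.2%, 28% and 25.8% of all genes, so that the dentate gyrus against CA1, inhibitory nuclei, oligodendrocytes and astrocytes were near or below the rate of all genes. Ahcyl2, a relative of the IP3 receptor binding protein IRBIT, rose by 2.09 (SE 0.12) in the dentate gyrus against CA1. Homer1, a scaffold that ties metabotropic glutamate receptors to IP3 receptors, fell by 1.33 (SE 0.12) in the same comparison, while Homer3 rose by 2.09 (SE 0.30) in CA3 against CA1. Jph1, a junctophilin that holds the store close to the plasma membrane, rose by 0.88 (SE 0.13) in the dentate gyrus against CA1 and fell by 2.29 (SE 0.18) in thalamic nuclei. Mrvi1, whose product binds IP3 receptors, rose by 4.99 (SE 0.28) in thalamic nuclei, at 110.2 and 86.5 CPM in Trained and 96.9 and 93.1 CPM in Untrained libraries.

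Of 10 genes of store-operated entry, 7 were tested, Trpc6 being left out as a dentate marker. In the dentate gyrus against CA1, CA3 against CA1 and the dentate gyrus against CA3, 3 passed each (1, 1 and 2 higher), and against the principal classes 4 in inhibitory nuclei (1 higher), 5 in thalamic nuclei (1 higher), 4 in oligodendrocytes (1 higher) and 5 in astrocytes (1 higher). These are 42.9% of the 7 in each comparison among the principal classes, where 20.1%, 14.4% and 20.8% of all genes passed, and 57.1%, 71.4%, 57.1% and 71.4% in the other 4, where 28.1%, 36.2%, 28% and 25.8% did. The store sensor Stim2 fell by 1.21 (SE 0.12) in inhibitory, 1.29 (SE 0.14) in thalamic, 0.98 (SE 0.16) in oligodendrocyte and 1.13 (SE 0.17) in astrocyte nuclei, and the channel Trpc5 fell by 1.07 (SE 0.13) in the dentate gyrus against CA1. Of 16 other pumps and exchangers, 11 were tested, and 6 (3 higher), 4 (0 higher) and 5 (4 higher) passed among the principal classes in the same order, and 8 (1 higher), 6 (3 higher), 10 (4 higher) and 10 (2 higher) in inhibitory, thalamic, oligodendrocyte and astrocyte nuclei. These are 54.5%, 36.4%, 45.5%, 72.7%, 54.5%, 90.9% and 90.9% of the 11, against 20.1%, 14.4%, 20.8%, 28.1%, 36.2%, 28% and 25.8% of all genes. The sodium-calcium exchanger Slc8a1 fell by 2.51 (SE 0.13) in the dentate gyrus against CA1, at 484 and 296 CPM in Trained and 299 and 332 CPM in Untrained dentate libraries, against 1691 and 1807 CPM in Trained and 1751 and 1742 CPM in Untrained CA1 libraries. Slc8a3 rose by 2.59 (SE 0.13) in thalamic and 1.63 (SE 0.14) in inhibitory nuclei. Of 8 genes of mitochondrial calcium uptake, 7 were tested and 2, 1 and 0 passed among the principal classes and 3, 3, 2 and 0 in inhibitory, thalamic, oligodendrocyte and astrocyte nuclei. These are 28.6%, 14.3%, 0%, 42.9%, 42.9%, 28.6% and 0% of the 7, against the same shares of all genes, so the counts in CA3 against CA1 and in oligodendrocytes were near that rate and the counts of 0 below it. The uniporter pore Mcu rose by 0.93 (SE 0.13) in the dentate gyrus against CA1 and fell by 0.68 (SE 0.12) in inhibitory nuclei. The median log2 difference of a list ran from -1.02 (store-operated entry in thalamic nuclei and in astrocytes) to 0.38 (mitochondrial uptake in thalamic nuclei), and that of all genes from -0.03 to 0.03.

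Training changed no gene of these lists past the threshold in any class or over all nuclei, and list medians ran from -0.38 (mitochondrial uptake in dentate granule nuclei) to 0.45 (pumps and exchangers in astrocytes), with -0.02 to 0.003 for all genes. Among the smallest unadjusted p-values of each list were those of Plcl2 in oligodendrocytes (1.17, SE 0.38, adjusted p = 0.921) and Plcl1 in CA1 (0.67, SE 0.24, adjusted p = 0.999), of Jph1 in astrocytes (1.30, SE 0.38, adjusted p = 0.318) and Homer1 in thalamic nuclei (0.89, SE 0.27, adjusted p = 0.999), of Trpc4 in dentate granule nuclei (0.57, SE 0.24, adjusted p = 0.783) and Trpc5 in oligodendrocytes (0.74, SE 0.38, adjusted p = 0.921), of Atp2b4 in dentate granule nuclei (-1.41, SE 0.50, adjusted p = 0.753) and Slc8a3 in CA1 (0.71, SE 0.30, adjusted p = 0.999), and of Mcu over all nuclei (0.52, SE 0.15, adjusted p = 0.792) and in inhibitory nuclei (0.65, SE 0.25, adjusted p = 0.677). Jph1 in astrocytes stood at 297 and 137 CPM in Trained and 74.4 and 70.0 CPM in Untrained libraries. It was named for its small unadjusted p, so the gap between its groups carries no weight of its own.

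Finally, the genes whose levels followed each member most closely over the 7 classes were taken from 4016 candidates by the correlation of log2(CPM + 10), averaged over the libraries. These values describe 7 points that share libraries and carry no test. Ryr2 ran closest to Tnrc6c (r = 0.99), Ano3 (0.98) and Slc35f3 (0.98), Ryr3 to Pkp2 (0.98) and Gucy1a2 (0.96), and Ryr1 to Map2k1 (0.98), Rprd1a (0.96) and Pdzd2 (0.96). Itpr1 ran closest to Egfem1 (0.98), Slc12a5 (0.97) and B230209E15Rik (0.96), and Itpr2 to Trappc9 (0.95), Opa1 (0.93) and Mapk8ip2 (0.92). Atp2a2 ran closest to Plekhg1 (0.98), which is also a thalamic check marker, Zfhx3 (0.98) and Ift57 (0.97), Atp2b1 to Dag1 (0.96), Actr3b (0.90) and Arpp21 (0.90), and Atp2b2 to Ttc17 (0.96), Dnmt3a (0.96) and Inpp4b (0.96). Among the members themselves the closest pair was Ryr3 and Atp2b1 (0.87), and the most opposed was Ryr2 and Atp2a2 (-0.90).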

How the data were processed

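Single nuclei of mouse hippocampus were profiled in 4 libraries with a droplet 3′ kit, per the labels' protocols. The deposited matrices hold raw UMI counts. Per the file headers they come from Cell Ranger 7.0.0, while the submitters' processing notes name Cell Ranger 8, STAR and GRCm39. Whether intronic reads were counted is not given in the sources used here. The 9 genes, the gene lists and the cell markers were chosen with earlier results of these data known.

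Barcodes with at least 600 UMIs were kept, with no clustering, no doublet caller and no mitochondrial filter. A barcode joined 1 of 14 classes when the summed UMIs of that class's markers exceeded the number expected from the library's average by a square-root-transformed z of at least 2, with at least 2 distinct markers and a lead of 1 over the next class. Mixed barcodes were not otherwise removed, and their share was not tested. Low-UMI barcodes are those up to 1.25 times the mode of the barcode depths (181, 214, 301 and 291 UMIs in Trained replicates 1 and 2 and Untrained replicates 1 and 2); in Trained replicate 2 and Untrained replicate 2 the mode lay in the lowest bin searched, so the true peak may be lower.

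Counts were summed per library and class and tested in R 4.3.3 with edgeR 4.0.16 (filterByExpr, TMM, quasi-likelihood F test, Benjamini-Hochberg over all genes, 0.05). The SE of a log2 difference is its size divided by the square root of F. A class was fitted with at least 30 nuclei in every library. Alternatives were the Wald test of DESeq2 1.42.0, edgeR with DESeq2's size factors, leaving out each library, dropping the count filter, a replicate or no library block, at least 1000 UMIs, 3 distinct markers, thinning to 600 UMIs, and free RNA subtracted. Some of the fits were also run on simulated counts with changes set in advance. The outcome is not reported here and lends no weight to the results above. All 9 genes are named, with list genes from among those of the smallest p in a comparison, and the 3 closest genes by correlation among those with a mean of at least 50 CPM; a few genes that these rules name are not reported here. Intervals and floors (3 counts) cover counting error only. Counting and figures used matplotlib 3.10.9, pandas 2.3.3, scipy 1.17.1 and numpy 2.4.6 under Python 3.11.15.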

Additional observations from a re-analysis of the deposited data

How the results depend on the processing

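Over the alternatives, 1374 of 1413 values of single members kept their call, 32 lost it, 7 gained it and 0 called values changed sign; 101 values below the threshold changed sign. Training called 1 member instead of 0 in oligodendrocytes and 1 instead of 0 in astrocytes without Untrained replicate 2 (range 0 to 1 over the libraries left out), and 1 in astrocytes after thinning to 600 UMIs. Inhibitory nuclei against the principal classes gave 3 members instead of 5 after thinning and 3 to 5 over the libraries left out. With the replicate block, 0 members passed for training; the deviations of same-numbered libraries correlated at 0.148 over 2 pairs, so the numbers are not taken to pair the mice. Training calls over all genes were few and unsteady. Without Untrained replicate 2 they came to 388 in oligodendrocytes (0 with all libraries), 56 in astrocytes (1) and 189 over all nuclei (0), and leaving out any 1 library gave 2 to 8 in dentate granule (2), 1 to 10 in CA1 (1), 2 to 21 in inhibitory (6) and 2 to 4 in thalamic nuclei (1). Thinning gave 61 in astrocytes, 6 in dentate granule, 2 in thalamic and 1 in inhibitory nuclei; dropping the count filter gave 159 over all nuclei, 6 in astrocytes and 1 in oligodendrocytes; DESeq2 gave 6 over all nuclei and 1 in dentate granule, CA3 and inhibitory nuclei each. With free RNA subtracted 0 were left in the 6 classes other than astrocytes, which kept a count of 1, and the replicate block gave 5 in thalamic nuclei and 2 in astrocytes. The test of a different effect between classes (5) gave 0 without the library block and 0 to 23 over the libraries left out. Thinned class comparisons called 1231 genes in the dentate gyrus against CA1 (1863), 763 in CA3 against CA1 (1333), 1066 in the dentate gyrus against CA3 (1930), 1588 in inhibitory (2607) and 1950 in thalamic nuclei (3362), on fewer UMIs. At least 1000 UMIs left 900 calls in astrocytes (2397) and 1362 in oligodendrocytes (2599), with 13 and 15 nuclei in Trained replicate 1. Without Untrained replicate 2 the counts were 888 in CA3 against CA1 and 1263 in the dentate gyrus against CA3, and without Untrained replicate 1 they were 1510 in astrocytes and 1697 in oligodendrocytes. Apart from what the setting itself removes, the cause was not tested. Medians of 736 to 1079 UMIs a nucleus leave Ryr1, Itpr2 and Itpr3 with few molecules in a class.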
